A study of Mus musculus with 6 samples.

Results

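The 10 genes described here belong to serotonergic neurons and to the handling of serotonin, and they were chosen from a list of gene symbols (GENCODE M21 annotation of GRCm38) out of 54532 gene identifiers counted in each library. They are Tph2, Slc6a4, Fev, Slc18a2, Ddc, Maob, Htr1a, Gata2, Gata3 and Slc22a3. All 10 were matched, 9 passed the filter on low counts, and Fev did not. The list was drawn up with the genotype comparison of these same libraries known, so the members' values are given as a description, with no p-value for a single member.

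RNA of whole brains from C57BL/6J mice at postnatal day 14 was sequenced, with 3 control and 3 mutant libraries. Per the labels, the controls were Mphosph8fl/+ Nestin-Cre+ and the mutants, labelled Mphosph8∆n, were Mphosph8fl/fl Nestin-Cre+, so every animal carried the transgene and at least 1 floxed allele. By these labels the controls carried 1 floxed allele that the transgene can delete, so they are not a baseline of intact Mphosph8. In the study's own text the controls are littermates named only as Nestin-Cre positive, and the genotypes of the labels were used here. Mphosph8 encodes MPP8, a protein of the HUSH complex that silences transcription, and Nestin-Cre acts in neural progenitors, which give rise to neurons, astrocytes and oligodendrocytes but not to microglia.

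Depth ran from 12956880 to 15223424 counts per library. Levels are given in CPM, the reads of a gene scaled to the same library size in every brain after TMM normalisation. Mphosph8 itself had 55.8, 48.6 and 70.7 CPM in control replicates 1, 2 and 3 and 33.1, 27.2 and 26.5 CPM in mutant replicates 1, 2 and 3, a log2 fold change of -1.02 ± 0.12 (SE, edgeR adjusted p = 0.000157). A pair of libraries stood apart on measures other than genotype. Mutant replicate 3 had a summed level of 8.58 CPM over 14 Hox genes of the hindbrain and spinal cord, against 31.5 to 35.5 CPM in the other 5 libraries. Control replicate 3 was the only library with more than 1 count on 4 Y-linked genes (3641 counts). It had 27 counts on Xist, against 11130 to 17697 in the other 5 libraries. The labels give no sex, but by these reads control replicate 3 was male and the other 5 libraries were female. Sex was thus unbalanced between the groups, with no male among the mutants. Members whose values turn on either library are therefore also given without it.

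Serotonergic neurons of the brain lie in the raphe nuclei, a row of small cell groups in the midbrain and hindbrain whose axons reach most of the brain. Tph2 turns tryptophan into 5-hydroxytryptophan, Ddc turns that into serotonin, Slc18a2 (the vesicular monoamine transporter) loads it into vesicles, and Slc6a4 (the serotonin transporter) takes it back up after release. Maob breaks down amines, Slc22a3 is a low-affinity transporter of monoamines, Htr1a is an inhibitory serotonin receptor that raphe neurons carry as an autoreceptor, and Fev (also called Pet1), Gata2 and Gata3 are transcription factors of the serotonergic programme. In RNA from whole brains, fewer serotonergic neurons and less RNA per neuron cannot be told apart, and the same holds for a smaller piece of raphe in the dissected brain.

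The promoter sequences of Tph2, Slc6a4 and Fev are shown because these members are the most restricted to serotonergic neurons. These members also had the lowest mean mutant levels relative to control, for Fev on few reads. Each run is the 250 bases before the start of the gene in RefSeq (GRCm38.p6), printed 5′ to 3′ on the strand of the gene. Capitals mark the letters GATAA, the core bound by GATA factors, and CGGAA, a core bound by ETS factors such as Fev, each searched on both strands. They lie at chr10:115185023-115185272 (minus strand) for Tph2, chr11:76998347-76998596 (plus strand) for Slc6a4 and chr1:74885409-74885658 (minus strand) for Fev.
Tph2: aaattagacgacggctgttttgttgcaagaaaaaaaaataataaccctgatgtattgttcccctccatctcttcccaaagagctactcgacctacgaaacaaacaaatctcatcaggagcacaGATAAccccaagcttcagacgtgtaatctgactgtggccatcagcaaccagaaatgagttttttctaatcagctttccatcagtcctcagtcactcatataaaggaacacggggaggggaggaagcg
Slc6a4: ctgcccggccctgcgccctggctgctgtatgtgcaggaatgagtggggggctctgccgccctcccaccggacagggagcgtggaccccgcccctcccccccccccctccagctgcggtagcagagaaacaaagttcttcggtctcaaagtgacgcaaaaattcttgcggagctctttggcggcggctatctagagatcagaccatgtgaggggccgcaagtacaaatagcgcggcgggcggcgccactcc
Fev: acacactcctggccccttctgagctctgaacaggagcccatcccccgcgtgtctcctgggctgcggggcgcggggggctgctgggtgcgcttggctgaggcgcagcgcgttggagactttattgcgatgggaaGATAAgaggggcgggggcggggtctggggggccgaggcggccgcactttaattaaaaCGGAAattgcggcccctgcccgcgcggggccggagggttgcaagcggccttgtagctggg

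GATAA began 127 bases before the start of Tph2 and 117 bases before that of Fev, which also held CGGAA at 60 bases before its start. Neither motif was found in the Slc6a4 window, which says only that these letters are not there. RefSeq promoters matched 9 of the 10 members, all but Maob, with 11 start sites among them. GATAA was in 3 of these 11 windows (Tph2, Fev and Slc18a2) and CGGAA in 4 (Fev, Gata2, Gata3 and Slc22a3). Of the 32851 mouse promoters of this length that were searched, 22.6% and 25.2% held them. That set left out the chromosome that holds the clustered protocadherin genes, where no member lies. A match is a description of the letters and not a binding site.

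**Figure D1:**
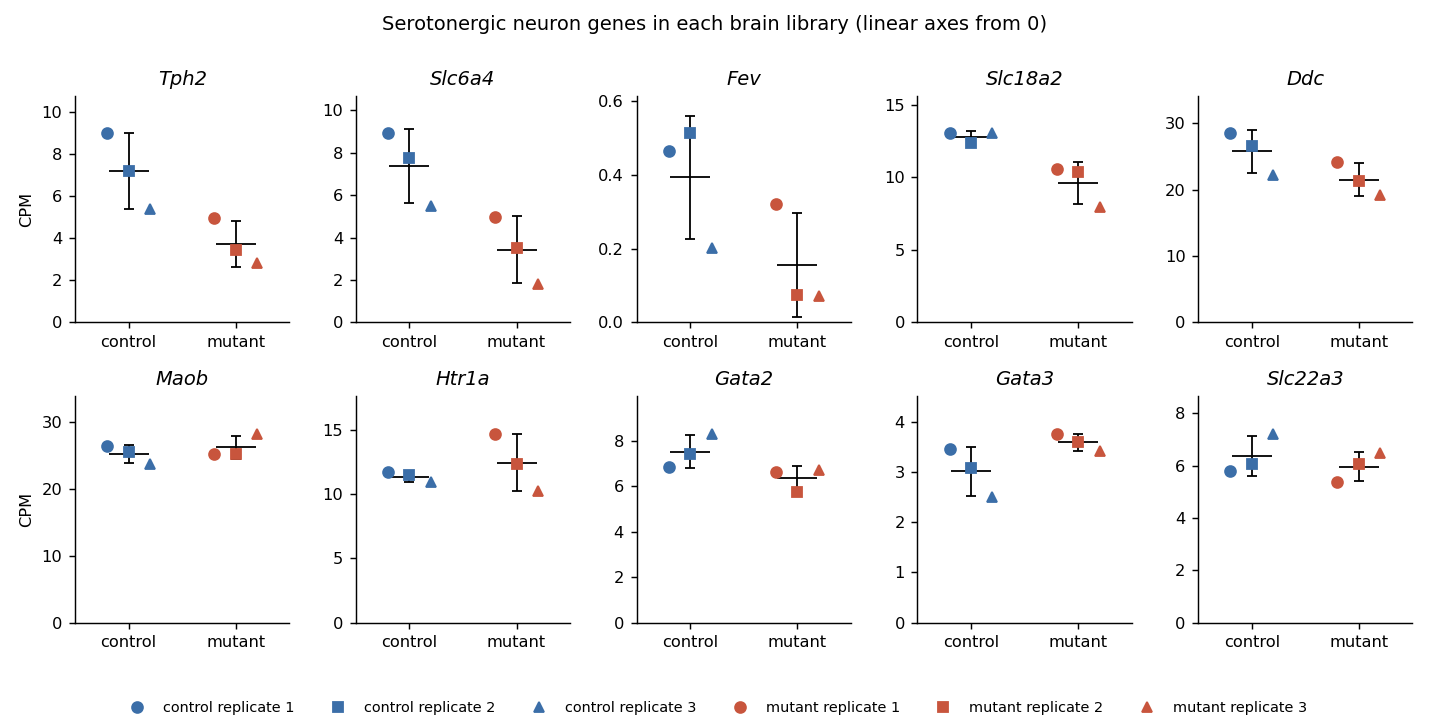
Level of each of the 10 members in CPM (linear axis from 0) in each of the 6 libraries, with control libraries in blue and mutant libraries in red, the marker shape giving the replicate number and the line and bars the mean ± SD of 3 libraries. For Tph2, Slc6a4, Slc18a2 and Gata2 all 3 mutant libraries lie below all 3 controls, and for the other 6 members the groups overlap.

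Of the 9 members tested, 0 were called lower and 0 higher by edgeR's quasi-likelihood test at an adjusted p under 0.05, where 0.0956% of all 16731 genes tested were called lower and 0.532% higher. At an unadjusted p under 0.05 the same fit held 4 members lower and 0 higher, where 2.41% of all genes tested were lower and 4.09% higher. DESeq2 called Tph2 and Slc6a4 lower, as did 4 other fits named under the processing alternatives, and limma-voom called 0 members. In 4 members every mutant library lay below every control library, as it did in 5.42% of all genes tested, and in 0 members did the mutants all lie above, against 6.23% of all genes. The median log2 fold change over the 9 members was -0.24, and that over all genes tested was -0.0073. Because the members were proposed from this comparison, nothing is read from these shares or calls.

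Tph2, Slc6a4 and Fev, the members most restricted to raphe neurons, had the lowest mean levels in mutant brains relative to control among the members. Tph2, the enzyme that commits tryptophan to serotonin in the brain, was at 52.1% of its control level, Slc6a4 at 46.4% and Fev at 39.6%. Fev rests on 17 control and 6 mutant reads, and its 95% counting interval (0.125 to 1.03) also held the ratio of Slc18a2 (0.747). Over all genes tested, 15 had a lower log2 fold change than Tph2 and 5 a lower one than Slc6a4. The members were proposed from this comparison, so nothing is read from this order or from these ranks.

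Tph2 (ENSMUSG00000006764, chromosome 10, 115078641 to 115185022, GRCm38) had 8.98, 7.18 and 5.40 CPM in control replicates 1, 2 and 3 and 4.96, 3.43 and 2.84 CPM in mutant replicates 1, 2 and 3. These levels rest on 80 to 135 reads per control library and 39 to 62 reads per mutant library. The groups did not overlap, but the lowest control (replicate 3) and the highest mutant (replicate 1) lay close together, and the controls alone spanned a 1.66-fold range, against a median range of 1.18-fold over all genes. The means were 7.18 ± 1.79 CPM in control and 3.74 ± 1.09 CPM in mutant (SD, n = 3), and the fitted log2 fold change was -0.95 ± 0.22 (SE). Without mutant replicate 3 the mutant mean was 58.4% of control, and without control replicate 3 it was 46.3%.

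Slc6a4 (ENSMUSG00000020838, chromosome 11, 76998603 to 77032340) had 8.91, 7.76 and 5.47 CPM in the controls and 4.96, 3.51 and 1.82 CPM in the mutants, again in the order of replicates 1, 2 and 3. The order of the 6 libraries was the same as for Tph2, with control replicate 1 highest and mutant replicate 3 lowest. The means were 7.38 ± 1.75 and 3.43 ± 1.57 CPM (SD, n = 3), and the log2 fold change was -1.12 ± 0.26 (SE). Leaving out single libraries moved this value both ways: the log2 fold change was -0.81 ± 0.23 without mutant replicate 3, which had 25 reads, and -1.47 ± 0.26 without mutant replicate 1. The mutant mean was 57.4% of control without mutant replicate 3 and 41.1% without control replicate 3.

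Fev, the terminal selector factor of serotonergic neurons (ENSMUSG00000055197, chromosome 1, 74881509 to 74885419), was close to the limit of detection. It had 7, 7 and 3 reads in the control libraries and 4, 1 and 1 reads in the mutant libraries, and the groups overlapped. Scaled for depth, the 6 mutant reads against 17 control reads gave a ratio of 0.387, with a 95% exact interval of 0.125 to 1.03 that covers counting error only. A difference in Fev was thus not detectable at this depth.

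The summed level of Tph2, Slc6a4 and Fev, the members most restricted to serotonergic neurons, was 18.4, 15.5 and 11.1 CPM in control replicates 1, 2 and 3 and 10.2, 7.02 and 4.73 CPM in mutant replicates 1, 2 and 3. The 2 groups thus formed an unbroken series, in which control replicate 3 and mutant replicate 1 were neighbours. Outside mutant replicate 3 the ratio of Slc6a4 to Tph2 reads was steadier than either level. It was 0.993, 1.08 and 1.01 in the controls and 1.00 and 1.02 in mutant replicates 1 and 2. Mutant replicate 3 had a ratio of 0.641, whose 95% counting interval of 0.372 to 1.09 still held the values of the other 5 libraries. Across the 6 libraries the log2 CPM of Slc6a4 and Tph2 had a Pearson r of 0.97 (0.92 after centring within groups), given as a description over libraries that share the group difference.

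**Figure D2:**
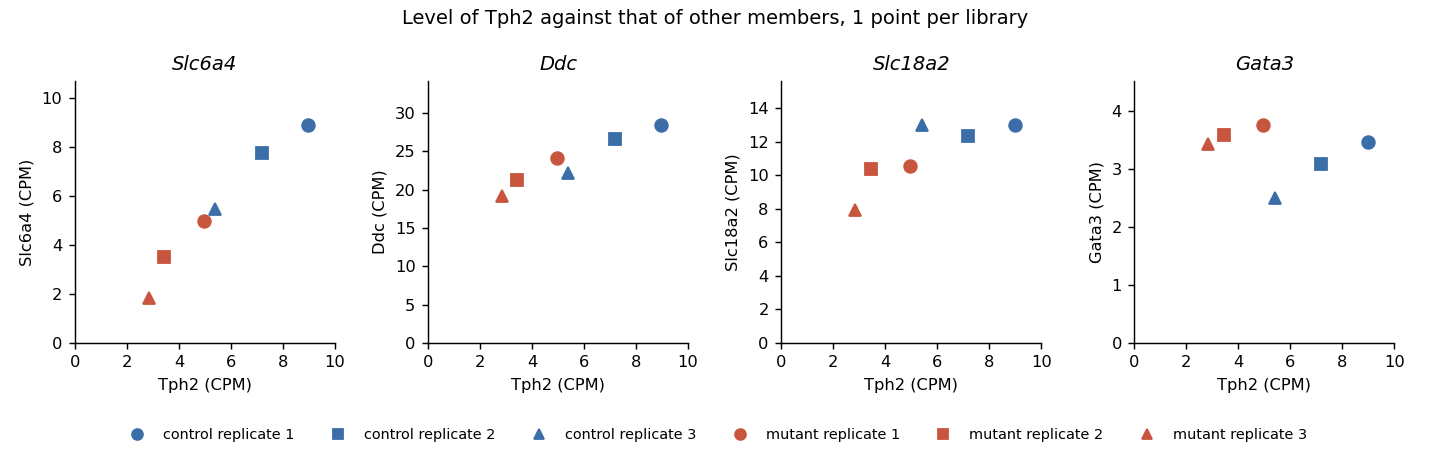
Level of Slc6a4, Ddc, Slc18a2 and Gata3 (vertical axes, CPM) against that of Tph2 (horizontal axes, CPM), 1 point per library, with controls in blue and mutants in red and the shape giving the replicate number. Slc6a4 and Ddc follow Tph2 over both groups, Slc18a2 is level over the 3 controls and lower in the mutants, and Gata3 shows no common line over both groups.

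Slc18a2 and Ddc, which serotonergic neurons share with dopamine and noradrenaline neurons, differed less. Slc18a2 (ENSMUSG00000025094, chromosome 19, 59260896 to 59296012) had 13.0, 12.4 and 13.0 CPM in the controls and 10.6, 10.4 and 7.92 CPM in the mutants. The controls were tight and the groups did not overlap, with means of 12.8 ± 0.376 and 9.62 ± 1.47 CPM (SD, n = 3) and a log2 fold change of -0.42 ± 0.13 (SE). Mutant replicate 3 was again the lowest library, and without it the mutant mean was 81.7% of control in place of 75.1%.

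Ddc (ENSMUSG00000020182, chromosome 11, 11814101 to 11898144) had 28.5, 26.6 and 22.2 CPM in the controls and 24.1, 21.3 and 19.1 CPM in the mutants. The groups overlapped, since mutant replicate 1 lay above control replicate 3, and the log2 fold change was -0.26 ± 0.12 (SE). The mutant mean was 83.6% of control, 78.2% without control replicate 3 and 88.2% without mutant replicate 3. Its library order was nearly that of Tph2 (Pearson r = 0.96 over 6 libraries), yet its span was narrower, so that Ddc reads per Tph2 read averaged 3.66 ± 0.472 in controls and 5.94 ± 0.963 in mutants (SD, n = 3).

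The members that many other cells of the brain express lay near their control levels. Maob (ENSMUSG00000040147, X chromosome, 16709282 to 16817366), the mitochondrial monoamine oxidase that is also abundant in astrocytes, had 26.3, 25.4 and 23.7 CPM in the controls and 25.2, 25.2 and 28.2 CPM in the mutants. The groups overlapped, and the log2 fold change was 0.06 ± 0.10 (SE). Slc22a3 (ENSMUSG00000023828, chromosome 17, 12418960 to 12507704) had 5.78, 6.08 and 7.22 CPM in the controls and 5.36, 6.05 and 6.47 CPM in the mutants, with a log2 fold change of -0.09 ± 0.16 (SE). Its exons overlap those of Plg on the opposite strand over 420 bases, and the strand setting of the counting is not given in the sources used here.

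Htr1a (ENSMUSG00000021721, chromosome 13, 105443639 to 105448122), a gene of a single exon that forebrain neurons also express, had 11.7, 11.5 and 10.9 CPM in the controls and 14.7, 12.4 and 10.3 CPM in the mutants. The mutants lay on both sides of the narrow control range, and the log2 fold change was 0.13 ± 0.14 (SE). Mutant replicate 3 was the lowest library here too, as for Tph2, Slc6a4, Slc18a2 and Ddc. Without it the mutant mean of Htr1a was 119% of control, against 109% with it.

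The transcription factors Gata2 and Gata3, which also act in midbrain GABA neurons and outside the nervous system, did not have the library order of Tph2 over both groups. Gata2 (ENSMUSG00000015053, chromosome 6, 88193891 to 88207032) had 6.85, 7.40 and 8.30 CPM in the controls and 6.64, 5.75 and 6.69 CPM in the mutants. The groups did not overlap, but the gap between the lowest control and the highest mutant was small, and the log2 fold change was -0.24 ± 0.15 (SE). Gata3 (ENSMUSG00000015619, chromosome 2, 9857078 to 9890034) had 3.46, 3.08 and 2.50 CPM in the controls and 3.76, 3.58 and 3.42 CPM in the mutants, with a log2 fold change of 0.25 ± 0.21 (SE). Within each group Gata3 had the same library order as Tph2 (r = 0.85 after centring within groups, against -0.22 without centring). The groups overlapped, with control replicate 3 the lowest library, and without control replicate 3 the mutant mean was 110% of control in place of 119%.

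**Figure D3:**
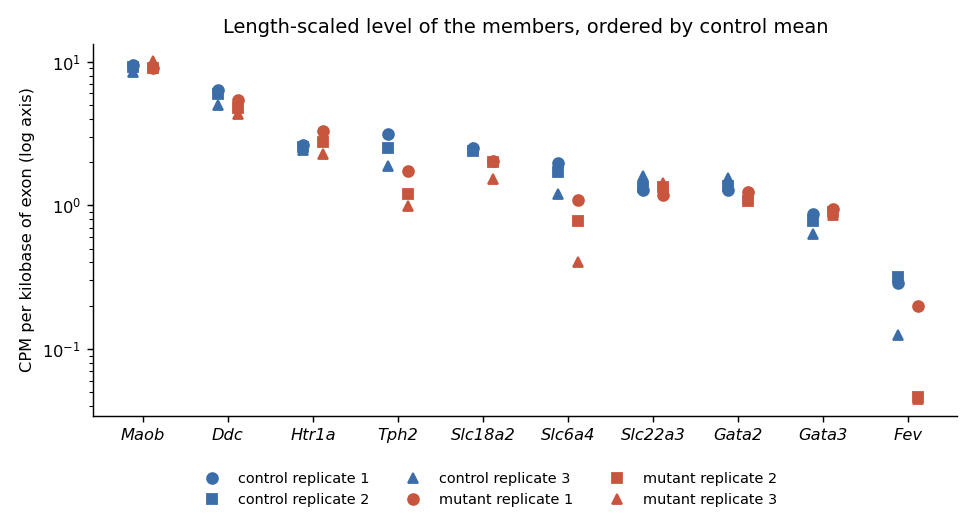
Level of each member per length (CPM per kilobase of annotated exon, log axis) in each library, with members ordered by their control mean, controls in blue and mutants in red, and the shape giving the replicate number. Maob and Ddc lie above the other 8 members in every library and Fev lies below them, while Tph2 and Slc6a4 sit lower among the members in mutants than in controls.

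Per kilobase of exon, Maob was the most abundant member in controls at 9.02 ± 0.481 CPM per kilobase (SD, n = 3), followed by Ddc at 5.77 ± 0.719. Htr1a (2.54 ± 0.0888), Tph2 (2.50 ± 0.621) and Slc18a2 (2.45 ± 0.072) came next and did not differ beyond their spread. Slc6a4 (1.63 ± 0.387), Slc22a3 (1.41 ± 0.168) and Gata2 (1.39 ± 0.136) formed another group within its spread, above Gata3 (0.757 ± 0.122) and Fev (0.243 ± 0.103). In mutants Tph2 stood at 1.30 ± 0.380 CPM per kilobase, below Slc18a2 at 1.84 ± 0.281 and within the spread of Slc22a3 and Gata2, and it went from rank 4 to rank 6 of the 10 members. Slc6a4 stood at 0.757 ± 0.347 and went from rank 6 to rank 9, while Maob, Ddc, Htr1a and Fev kept ranks 1, 2, 3 and 10.

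The other genes of the serotonin pathway were taken as 3 lists of 32 genes in all, none of them members, of which 28 passed the filter. By edgeR, DESeq2 and limma-voom 0 of the 28 were called in either direction, and at an unadjusted p under 0.05 in edgeR 0 were lower and 1 higher. That gene was Aldh1a1, an aldehyde dehydrogenase that dopamine neurons and other cells also express, with a log2 fold change of 0.30 ± 0.11 (SE, edgeR adjusted p = 0.52). Its control replicate 3 stood at 101 CPM against 146 to 170 CPM in the other 5 libraries, and without it the log2 fold change was 0.14 ± 0.09.

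Among 7 other identity factors of serotonergic neurons, 6 were tested and had a median log2 fold change of -0.15. The most abundant were En2, with a mean of 31.5 ± 2.12 CPM in control and 29.1 ± 1.47 CPM in mutant (SD, n = 3), Insm1 and Nkx2-2, and all of these are also expressed by cells outside the raphe. Lmx1b, which serotonergic neurons need to form and which dopamine neurons also express, was picked out after its values were seen because it lay opposite to Tph2. It had 2.26, 2.27 and 2.70 CPM in the controls and 2.32, 4.78 and 2.47 CPM in the mutants, so that the higher mutant mean came from replicate 2 (log2 fold change 0.41 ± 0.27, edgeR adjusted p = 0.904).

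Of 12 other genes of serotonin making, uptake and breakdown, 11 were tested, with a median log2 fold change of -0.05. Slc7a5 and Slc3a2, which form the carrier that brings tryptophan into the brain, had log2 fold changes of 0.05 ± 0.10 and -0.02 ± 0.09 (SE). Maoa, the monoamine oxidase with the higher affinity for serotonin, had 65.8 to 67.2 CPM in the controls and 60.3 to 67.3 CPM in the mutants. Gch1, which starts the synthesis of the cofactor that Tph2 uses, was the 1 gene of these lists with every mutant below every control (3.26 to 3.74 against 2.72 to 2.84 CPM), and its edgeR adjusted p was 0.897. Gch1 and Maoa were named after their values were seen.

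Among 13 other serotonin receptors, which lie mostly on the target cells of serotonin, 11 were tested and their log2 fold changes ran from -0.17 (Htr1b) to 0.27 (Htr1f). The most abundant, Htr2c, had 60.9, 66.2 and 74.2 CPM in the controls and 67.4, 66.3 and 53.8 CPM in the mutants, and Htr7 had a log2 fold change of -0.04 ± 0.13 (SE). The receptors as a list thus held no called gene, and their median log2 fold change was -0.05.

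**Figure D4:**
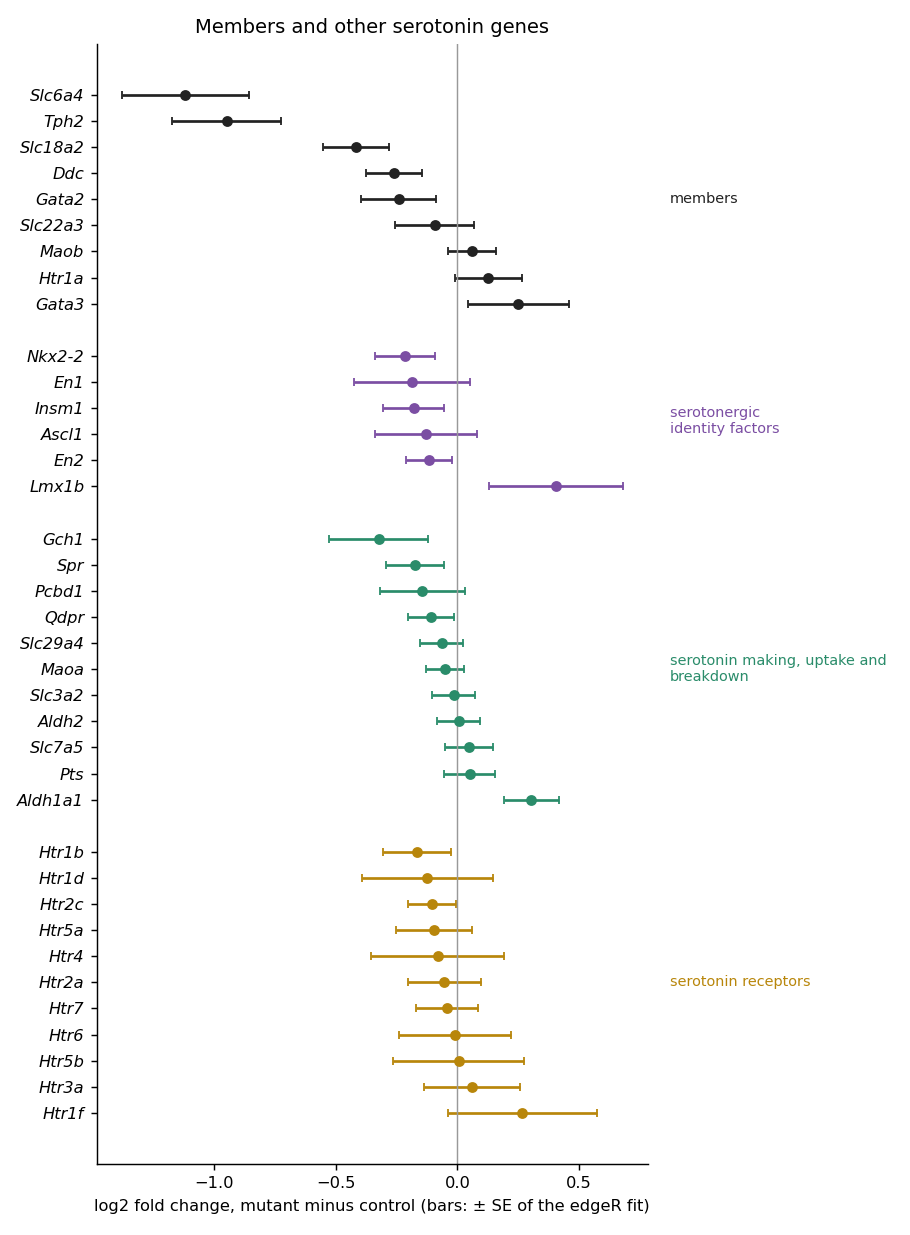
Fitted log2 fold change of mutant minus control (points) with its SE from the edgeR fit (bars) for the 9 members tested and for 28 other serotonin genes in 3 lists. Slc6a4 and Tph2 lie at -1.12 and -0.95, and all other genes shown lie between -0.42 (Slc18a2) and 0.41 (Lmx1b).

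Genes of other neurons and regions were read beside the members, because several members are expressed there and because the amount of brainstem can differ between dissected brains. Of 73 such genes in 10 lists, 55 were tested and 0 were called by edgeR, DESeq2 and limma-voom, with 6 lower and 2 higher at an unadjusted p under 0.05 in edgeR, where 2.41% and 4.09% of all genes tested were. Brainstem neuron genes had their lowest sum in mutant replicate 3, as Tph2 and Slc6a4 did. Their summed level was 437, 391 and 436 CPM in control replicates 1, 2 and 3 and 412, 347 and 283 CPM in mutant replicates 1, 2 and 3. In this list Slc6a5, the glycine transporter of brainstem and spinal cord neurons, stood at 66.7% of control (log2 fold change -0.59 ± 0.15, edgeR adjusted p = 0.139), and Nefh, a neurofilament of large projection neurons, at 75.5% (-0.41 ± 0.12, adjusted p = 0.207). Without mutant replicate 3 the log2 fold change was -0.37 ± 0.12 for Slc6a5 and -0.26 ± 0.11 for Nefh, and the summed level of the list was 0.902 of control. Most of this sum came from Nefh and Slc17a6, and Slc17a6 stood at 97.7% of control over all libraries, so the sum says little of Slc6a5. The part of brainstem content in the levels of Tph2 and Slc6a4 was not tested.

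The Hox genes, which mark the hindbrain and spinal cord behind the front raphe groups, gave another order of the libraries. Their summed level was 31.5, 35.5 and 32.2 CPM in the controls and 31.7 and 34.9 CPM in mutant replicates 1 and 2, with 8.58 CPM in mutant replicate 3. All 13 Hox genes tested had a log2 fold change below 0, with a median of -0.51. Hoxb8, the most abundant of the list, had 3.86 to 9.23 CPM in the controls, 7.68 and 10.6 CPM in mutant replicates 1 and 2 and 0.727 CPM in mutant replicate 3. Summed without Hoxb8, a choice made after the data were seen, the list stood at 27.7, 26.3 and 25.4 CPM in the controls and at 24.0, 24.3 and 7.85 CPM in the mutants, so that mutant replicates 1 and 2 were just below the controls. Hoxd4 had no read in any library.

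Catecholamine neurons, which share Slc18a2 and Ddc with serotonergic neurons, had a summed level of 222, 213 and 164 CPM in controls and 220, 229 and 240 CPM in mutants, most of it from Aldh1a1 and Nr4a2. Th, the enzyme that starts catecholamine synthesis, had 9.64, 8.86 and 9.52 CPM in the controls and 9.20, 9.26 and 11.3 CPM in the mutants, and the dopamine transporter Slc6a3 had a log2 fold change of -0.18 ± 0.15 (SE). The noradrenaline genes stood apart from these in value: Slc6a2, the noradrenaline transporter, was at 56.0% of control and Dbh, which makes noradrenaline, at 66.1%. Slc6a2 had 3.24 to 3.59 CPM in the controls and 1.84 and 2.31 CPM in mutant replicates 1 and 2, and its lowest library was mutant replicate 3, as for Tph2. Spearman's rho with Tph2 over the 6 libraries was 0.943 for Slc6a2 and for Dbh, given as a description over libraries that share the group difference. After centring within groups, the Pearson r of log2 CPM with Tph2 was 0.325 for Slc6a2 and 0.643 for Dbh. Both genes had every mutant library below every control, with edgeR adjusted p of 0.169 and 0.56. Slc6a2, Dbh, Th and Slc6a3 were picked out after their values were seen.

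The remaining lists held no called gene. Midbrain GABA neuron factors, among which Gata2 and Gata3 act, summed to 53.3 to 54.1 CPM in the controls and 53.7 to 55.1 CPM in the mutants, forebrain neuron genes to 153 to 177 and 156 to 179 CPM, endothelial markers to 406 to 417 and 364 to 437 CPM, and astrocyte markers to 7491 to 8776 and 8405 to 8981 CPM. Hypothalamus and histamine neuron genes summed to 22.5 to 33.6 CPM in controls and 18.8 to 28.3 CPM in mutants, a mean at 0.832 of control and at 0.756 without mutant replicate 3. The hormone gene Pmch of this list had a log2 fold change of -0.49 ± 0.21 (SE, edgeR adjusted p = 0.659). Mast cell markers, read because such cells also hold Gata2 and Slc18a2, were at 0.598 to 1.39 CPM in controls and 0.523 to 0.800 CPM in mutants, with Fcer1a at 0 throughout, and pineal markers, read because the pineal makes serotonin through Tph1, were at 1.15 to 1.98 CPM.

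**Figure D5:**
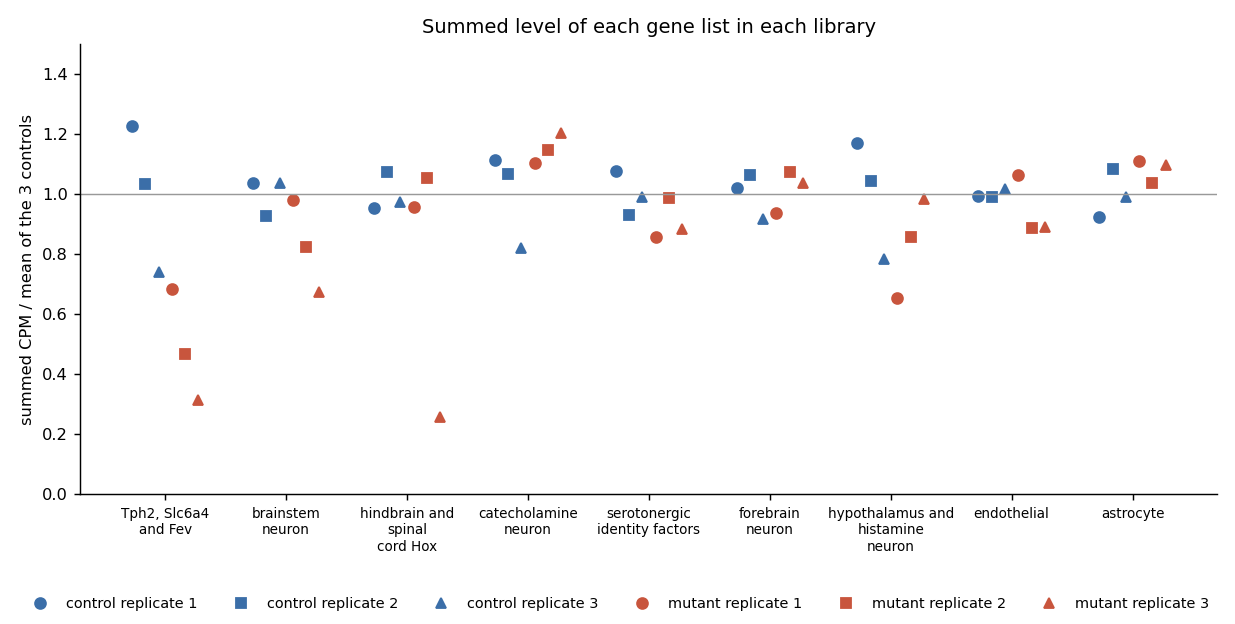
Summed CPM of Tph2, Slc6a4 and Fev and of 8 gene lists in each library, divided by the mean of the 3 controls (linear axis from 0), with controls in blue and mutants in red and the shape giving the replicate number. The serotonergic sum is lower in the 3 mutants (4.73 to 10.2 CPM) than in the 3 controls (11.1 to 18.4 CPM), whereas the Hox sum is low in mutant replicate 3 and near 1 in the other libraries.

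The likeness of every gene tested to Tph2 was measured as the Pearson r of log2 CPM over the 6 libraries, and it is a description over few points that share the genotype difference and their depth. The 5 genes with the highest r were Zdhhc14, Cnp, Gm9925, Arl8b and Tm2d2, with r from 0.99 to 1.00. They were less spread than Tph2: Cnp, an enzyme of myelin, ran from 1191 CPM in control replicate 1 to 870 CPM in mutant replicate 3, and Zdhhc14 from 49.0 to 43.8 CPM. Of 16730 genes, 209 (1.25%) had an r over 0.9. Slc6a4 ranked 25, Ddc 40 and Slc18a2 334, whereas Gata2 (3633), Htr1a (6954), Gata3 (10859), Slc22a3 (10882) and Maob (11917) ranked far behind. A high rank was not particular to serotonin genes. Mog (7), Nefh (148) and Dbh (190) ranked ahead of Slc18a2, whereas Slc6a3 (715) and Th (14352) ranked behind it. These ranks moved with the setting. After centring within groups Slc6a4 ranked 441 and Ddc 43. With 1 library left out Slc6a4 ranked 4 to 93 and Ddc 18 to 204. By Spearman's rho Slc6a4 had the same library order as Tph2, as 4 of the 5 leading genes had.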

How the data were processed

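Whole-brain RNA of 3 control and 3 Mphosph8 mutant mice was sequenced after polyA selection. Reads were trimmed (Trim Galore 0.5.0), freed of ribosomal, mitochondrial and adapter sequence (Bowtie2 2.3.4.1), aligned to GRCm38 with STAR and counted per Ensembl gene with featureCounts (Subread 1.6.2) by the authors, per the study's methods and the submitters' processing notes. The deposited files hold whole-number counts per gene without any normalisation. The strand setting is not given in the sources used here.

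From these counts, edgeR 4.0.16 (R 4.3.3) was fitted to all 6 libraries with filterByExpr, TMM scaling and genotype as the only term, using the quasi-likelihood F test and Benjamini-Hochberg adjustment over 16731 genes. A gene was called at an adjusted p under 0.05. Standard errors come from the F statistic. CPM use the effective library size of the tested genes, and log2 CPM a prior count of 2. GENCODE M21 gave symbols for 54495 identifiers, positions and exon lengths. As alternatives, each library was left out in turn, the low-count filter was dropped or set to 1 CPM in 3 libraries, DESeq2 1.42.0, limma-voom (limma 3.58.1) or RLE size factors were used, the replicate number was added as a block, and a fold limit of 2 was applied.

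Genes to name were taken from the members, Mphosph8, the 3 most abundant genes and every called gene of each list, and the 5 genes most like Tph2. Genes named outside this rule were picked after their values were seen. Members and lists were chosen with earlier results of these data known. Depth ran from 12956880 to 15223424 counts, so a gene with few reads, such as Fev, is measured with wide counting error. The p-values measure the spread between these brains only.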

Additional observations from a re-analysis of the deposited data

How the results depend on the processing

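Over the alternatives run, the log2 fold change of Slc6a4 ran from -1.47 to -0.81, that of Tph2 from -1.20 to -0.75, that of Slc18a2 from -0.49 to -0.29 and the median of the members tested from -0.27 to -0.16, always below 0. Tph2 and Slc6a4 were called lower by DESeq2, without the filter on low counts, with the replicate block, without control replicate 3 and without mutant replicate 1, and in no other fit. The members were proposed from this same comparison, so nothing is read from these calls. Htr1a changed sign to -0.0088 without mutant replicate 1 and Slc22a3 to 0.011 without control replicate 3, both uncalled in every fit. Genes called lower over all genes numbered 16, against 27 by DESeq2, 67 without the filter, 26 with the replicate block and 1 above a fold of 2, and 4 to 49 when 1 library was left out, 49 of them without mutant replicate 1. Genes called higher numbered 89, against 175 without the filter, 59 above a fold of 2 and 56 to 113 when 1 library was left out, with 56 without control replicate 3. Genes of other neurons and regions called lower numbered 0, against 2 without the filter (Nefh and Slc6a5), 1 with the replicate block (Nefh) and 0 to 2 when 1 library was left out, 2 of them without mutant replicate 1 (Nefh and Slc6a5). Spearman's rho of Slc6a4 with Tph2 was 1, against a Pearson r of 0.97. The cause of these changes was not tested. Libraries of the same replicate number had weakly correlated deviations (0.104, -0.0467 and 0.0804 for numbers 1, 2 and 3), which does not settle whether they were paired. The replicate block changed no call of the serotonin genes outside the members. Depth limits Fev (23 reads in all). The labels leave sex and the dissection border unstated, and by Y-linked and Xist reads control replicate 3 was the only male.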
